A study of Homo sapiens with 8 samples.

Results

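The 9 genes described here belong to the hypoxia-inducible factor (HIF) pathway. They are the oxygen-regulated subunit HIF1A, its prolyl hydroxylase EGLN1, and the hypoxia-inducible genes VEGFA, ANGPTL4, ADM, BNIP3, BNIP3L, NDRG1 and BHLHE40. They were chosen by name, with earlier results of these data known. All 9 were listed in both expression tables of the study, which together list 13703 genes, 11807 of them in both tables. The study compared human osteosarcoma cells carrying a guide RNA against NAT10, described as knockout cells, with control cells, by sequencing polyadenylated RNA on the BGISeq-500 platform. NAT10 encodes an RNA acetyltransferase. The groups were 143B sgNAT10 with 2 libraries, 143B NC with 2, HOS sgNAT10 with 2 and HOS NC with 2. 143B and HOS are established osteosarcoma cell lines, 143B being a derivative of HOS transformed with a viral Ras oncogene. The guide sequence, the clonality of the edited cells, the oxygen tension of the cultures and what NC stands for beyond control are not given in the sources used here.

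In oxygenated cells EGLN1 hydroxylates the HIF alpha subunits, which are then bound by VHL and degraded, while in hypoxia the alpha subunits persist, pair with ARNT and activate genes through hypoxia response elements with the core ACGTG or GCGTG. HIF1A is therefore controlled mostly at the protein level, which RNA levels do not measure. EGLN1 is itself a hypoxia-inducible gene. In solid tumours such as osteosarcoma the pathway is known for inducing angiogenic factors, glycolysis and mitophagy.

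Of the 9 genes, 6 matched the RefSeq promoter table by symbol, and VEGFA, BNIP3L and NDRG1 did not. Promoter sequences are shown for the 5 of these 6 whose RNA changed in at least 1 line, since they carry the letters that HIF is known to bind, as RefSeq gives them (GRCh38.p14, 250 bases before to 50 after the annotated start). Each is printed 5′ to 3′ on the strand of its gene, with matches to ACGTG or GCGTG on either strand in capitals, so that a match on the opposite strand reads CACGT or CACGC. BNIP3 lies on the minus strand at chr10:131981874-131982173, BHLHE40 on the plus strand at chr3:4979187-4979486, ANGPTL4 on the plus strand at chr19:8363905-8364204, ADM on the plus strand at chr11:10304823-10305122, and EGLN1 on the minus strand at chr1:231422238-231422537.
BNIP3: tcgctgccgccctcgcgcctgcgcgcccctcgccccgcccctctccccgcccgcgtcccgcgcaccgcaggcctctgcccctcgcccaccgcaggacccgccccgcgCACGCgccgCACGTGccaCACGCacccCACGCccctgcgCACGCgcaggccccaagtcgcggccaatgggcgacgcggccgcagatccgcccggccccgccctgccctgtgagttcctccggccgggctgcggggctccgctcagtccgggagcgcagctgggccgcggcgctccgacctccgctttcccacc
BHLHE40: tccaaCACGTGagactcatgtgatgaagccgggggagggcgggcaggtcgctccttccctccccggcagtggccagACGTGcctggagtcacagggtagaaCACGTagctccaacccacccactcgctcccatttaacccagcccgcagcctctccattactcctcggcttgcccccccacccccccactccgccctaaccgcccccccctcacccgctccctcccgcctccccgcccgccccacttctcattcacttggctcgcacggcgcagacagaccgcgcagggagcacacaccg
ANGPTL4: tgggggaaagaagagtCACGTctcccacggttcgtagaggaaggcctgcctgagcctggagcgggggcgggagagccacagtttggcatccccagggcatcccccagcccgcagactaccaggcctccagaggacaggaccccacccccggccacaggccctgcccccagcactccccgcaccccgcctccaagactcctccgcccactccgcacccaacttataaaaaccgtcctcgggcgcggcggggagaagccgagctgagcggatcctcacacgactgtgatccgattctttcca
ADM: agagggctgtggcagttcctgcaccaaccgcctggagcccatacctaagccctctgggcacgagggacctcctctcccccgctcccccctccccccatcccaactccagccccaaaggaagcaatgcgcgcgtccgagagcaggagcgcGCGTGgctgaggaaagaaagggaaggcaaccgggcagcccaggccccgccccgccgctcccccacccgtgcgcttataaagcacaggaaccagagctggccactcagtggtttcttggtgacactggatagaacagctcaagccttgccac
EGLN1: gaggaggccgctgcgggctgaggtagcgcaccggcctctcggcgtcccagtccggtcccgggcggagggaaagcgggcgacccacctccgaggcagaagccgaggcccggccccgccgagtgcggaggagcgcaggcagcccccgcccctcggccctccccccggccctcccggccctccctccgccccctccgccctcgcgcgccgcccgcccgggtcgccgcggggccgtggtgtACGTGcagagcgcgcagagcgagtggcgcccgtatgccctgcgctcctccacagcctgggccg

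BNIP3 held 6 matches, 2 to ACGTG and 4 to GCGTG, all at positions -143 to -100 relative to the start. BHLHE40 held 4, all to ACGTG. In each of these promoters 2 of the matches are the overlapping strands of 1 palindrome, CACGTG. ANGPTL4, ADM and EGLN1 held 1 match each, beginning at positions -234, -101 and -13. HIF1A has 2 promoter entries, 1 with a single GCGTG match and 1 with none. Of the 35116 promoters in the table, 48.4% held at least 1 match to either core and 4.40% held 4 or more, a class that contains BNIP3 and BHLHE40. CACGTG stood in 7.26% of them. A match is only a stretch of letters, and binding was not measured.

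Values are FPKM as the authors deposited them, a measure of fragments per transcript length and per library, with 1 table for each line. Changes are differences in log2(FPKM + 1), sgNAT10 minus NC, a scale on which the changes of weakly expressed genes come out too small. They were tested with limma over every gene that reached 1 FPKM in 2 or more of a line's 4 libraries, with a Benjamini-Hochberg adjusted p threshold of 0.05. All 9 genes passed that filter in both lines. Separate cultures are not stated for the libraries within a group, so the p-values reflect only how far these samples spread, possibly for technical reasons. An exact permutation test of 2 libraries against 2 cannot go below p = 0.33, so the tests rest on spread pooled across genes. Bulk RNA cannot tell fewer expressing cells from less RNA per cell.

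NAT10 RNA was checked first. It stood at 9.05 and 7.19 FPKM in the 143B sgNAT10 libraries, against 16.06 and 19.95 FPKM in the 143B NC libraries (log2 change -1.06, SE 0.31, limma adjusted p = 0.026). The HOS libraries labelled sgNAT10 had 21.13 and 19.14 FPKM of NAT10, against 14.86 and 16.22 FPKM in the HOS NC libraries (log2 change 0.35, SE 0.10, limma adjusted p = 0.0054). NAT10 RNA was thus lower with the guide in 143B and higher in HOS, so in HOS the RNA of the targeted gene goes against the label, and protein was not measured. Every HOS direction below is of the libraries labelled sgNAT10. Summed FPKM ranged between 484793 and 798137 per library, and read counts are not part of the tables, so depth is unknown.

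**Figure D1:**
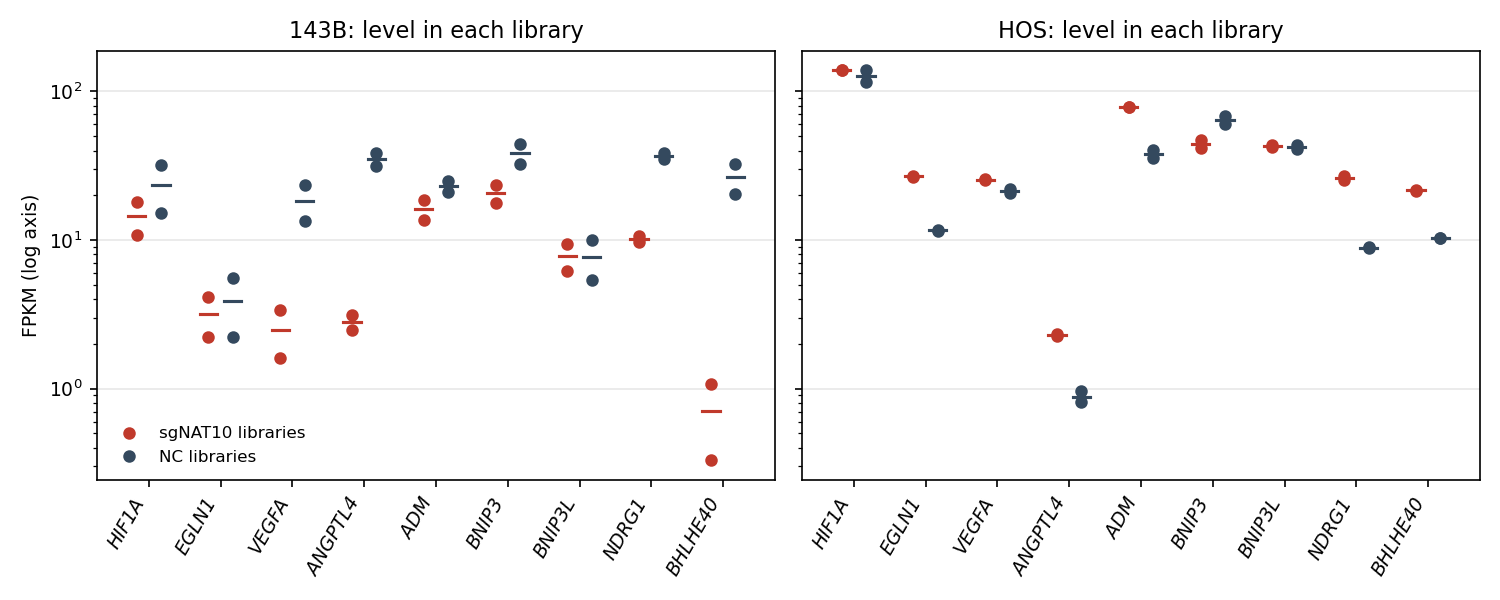
FPKM of the 9 genes in each library, on a log axis, with 143B on the left and HOS on the right. Points are single libraries and bars the mean of 2, sgNAT10 left of NC. BHLHE40 in 143B shows the widest gap, with sgNAT10 libraries at 0.33 and 1.08 FPKM.

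In 143B, 5 of the 9 genes fell with sgNAT10 (VEGFA, ANGPTL4, BNIP3, NDRG1 and BHLHE40) and none rose. Among all 11419 genes tested in that line, 25.4% fell and 12.9% rose. In HOS, 6 rose (EGLN1, VEGFA, ANGPTL4, ADM, NDRG1 and BHLHE40) and 1 fell (BNIP3), where 45.5% of 11957 genes rose and 23% fell. The median log2 change of the 9 genes was -0.86 in 143B, against -0.25 over all genes tested, and 0.81 in HOS, against 0.19. Calls in either direction came to 5 of 9 genes in 143B, beside 38.3% of all genes, and to 7 of 9 in HOS, beside 68.5%. In 143B both sgNAT10 libraries lay below both NC libraries for 6 of 9 genes (42.8% of genes tested) and above them for none (23.9%). In HOS they lay above for 6 of 9 (53.9%) and below for 1 (29.2%). Most genes of the HOS table were called, so a call in that line sets a gene little apart.

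The median of all genes was itself off 0 in each line. Median-ratio scaling brought it to -0.017 in 143B and -0.0079 in HOS. The genome-wide split of 1473 higher and 2897 lower genes in 143B became 2361 and 2541, and that of 5444 higher and 2751 lower in HOS became 3762 and 4038. Under this scaling 4 of the 9 genes fell in 143B, with BNIP3 no longer called, and 5 rose and 1 fell in HOS, with VEGFA no longer called. Rescaling to a common sum instead gave 8 rises and 1 fall among the 9 genes in HOS, with HIF1A and BNIP3L called as rises. Over all 11957 genes it gave 7075 rises and 1703 falls there.

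**Figure D2:**
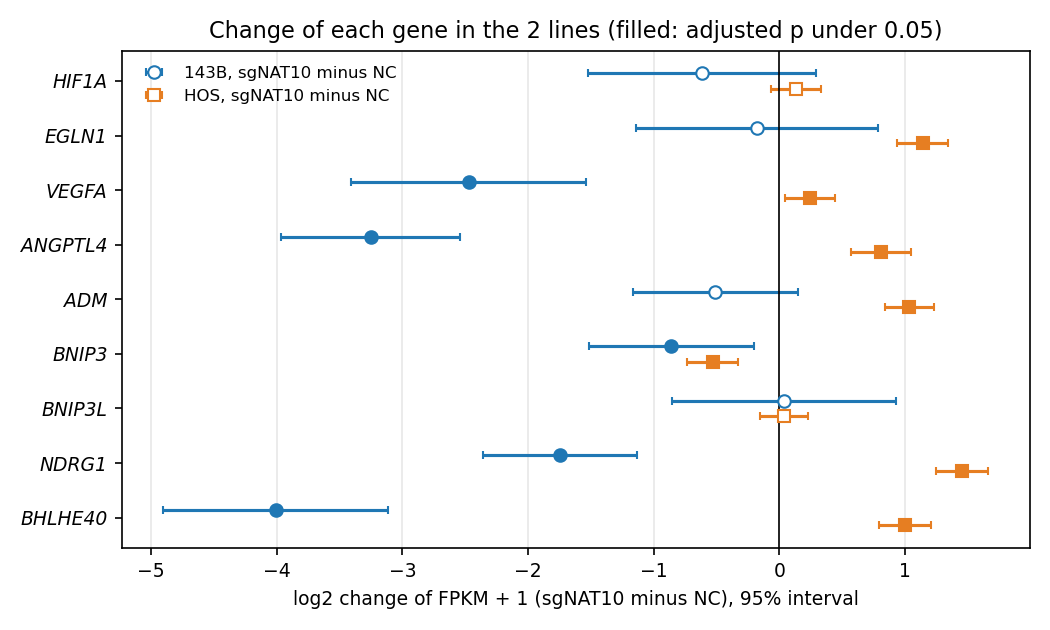
Log2 change of FPKM + 1, sgNAT10 minus NC, for the 9 genes in 143B (circles) and HOS (squares), with 95% intervals. Filled symbols passed the adjusted p threshold of 0.05. NDRG1, ANGPTL4 and BHLHE40 lie far below 0 in 143B and above 0 in HOS.

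The oxygen-regulated subunit came first. HIF1A had 10.85 and 18.09 FPKM in the 143B sgNAT10 libraries, against 15.2 and 31.77 FPKM in the 143B NC libraries. These groups overlapped, and the change of -0.62 (SE 0.40, 95% interval -1.52 to 0.29) did not pass the threshold (limma adjusted p = 0.253). It passed the threshold without NC replicate 1 (-1.12, limma adjusted p = 0.0132) and under a correction for the GC content and length of transcripts (-0.83, limma adjusted p = 0.00235). In HOS, HIF1A had 138.38 and 138.44 FPKM in the libraries labelled sgNAT10, against 138.64 and 115.11 FPKM in the NC libraries. The groups overlapped again, with a change of 0.13 (SE 0.094, 95% interval -0.068 to 0.33, limma adjusted p = 0.225). This change was called in 5 of 18 alternatives, among them the common sum. Without NC replicate 1 it was 0.26, past the threshold (limma adjusted p = 0.00404), while under median-ratio scaling it was -0.098.

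EGLN1, the hydroxylase that marks HIF1A for degradation, rose in HOS. In 143B it had 2.24 and 4.11 FPKM in the sgNAT10 libraries, against 2.24 and 5.52 FPKM in the NC libraries. The groups shared their lowest value, and the change of -0.18 did not pass the threshold (SE 0.42, 95% interval -1.14 to 0.79, limma adjusted p = 0.773). In HOS it rose to 26.5 and 27.07 FPKM in the libraries labelled sgNAT10, against 11.72 and 11.5 FPKM in the NC libraries (log2 change 1.14, SE 0.097, limma adjusted p = 6.81e-08). Both HOS sgNAT10 libraries were above both NC libraries.

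VEGFA encodes vascular endothelial growth factor A, the principal angiogenic ligand of the pathway. It fell to 1.6 and 3.38 FPKM in the 143B sgNAT10 libraries, against 13.41 and 23.35 FPKM in the 143B NC libraries (log2 change -2.47, SE 0.41, limma adjusted p = 0.00315). The groups were far apart. In HOS it had 25.56 and 25.48 FPKM in the libraries labelled sgNAT10, against 21.98 and 20.87 FPKM in the NC libraries. The groups did not overlap, and the change of 0.24 passed the threshold (SE 0.095, limma adjusted p = 0.0313). It was 0.022 after median-ratio scaling (limma adjusted p = 0.859), -0.13 under the length and GC correction, and not called without sgNAT10 replicate 1 or 2 (limma adjusted p = 0.255 and 0.237).

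ANGPTL4, a secreted inhibitor of lipoprotein lipase that also acts on vessels, showed the second largest fall of the 9 genes in 143B. It had 3.12 and 2.47 FPKM in the 143B sgNAT10 libraries, against 38.78 and 31.65 FPKM in the 143B NC libraries (log2 change -3.25, SE 0.31, limma adjusted p = 0.000954). In HOS it had 2.34 and 2.27 FPKM in the libraries labelled sgNAT10, against 0.81 and 0.96 FPKM in the NC libraries (log2 change 0.81, SE 0.11, limma adjusted p = 9.18e-06). ANGPTL4 passed the HOS filter only through its sgNAT10 libraries, so a difference in that direction was built in. The ratio of VEGFA to ANGPTL4 within a library was 0.513 and 1.37 in 143B sgNAT10, against 0.346 and 0.738 in 143B NC, and 10.9 and 11.2 in HOS sgNAT10, against 27.1 and 21.7 in HOS NC. The HOS groups of this ratio did not overlap, while those of 143B did.

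ADM encodes adrenomedullin, a vasodilator peptide. It had 13.66 and 18.44 FPKM in the 143B sgNAT10 libraries, against 21.14 and 25.05 FPKM in the 143B NC libraries. These groups did not overlap, but the change of -0.51 (SE 0.29, 95% interval -1.17 to 0.15) did not pass the threshold (limma adjusted p = 0.197) and was 0.10 under the length and GC correction. In HOS it rose to 78.35 and 78.68 FPKM in the libraries labelled sgNAT10, against 35.53 and 40.36 FPKM in the NC libraries (log2 change 1.03, SE 0.092, limma adjusted p = 1.11e-07). The HOS groups were well apart.

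The paralogs BNIP3 and BNIP3L encode mitochondrial outer membrane receptors that recruit the autophagy machinery in hypoxia. BNIP3 had 17.69 and 23.5 FPKM in the 143B sgNAT10 libraries, against 32.33 and 44.18 FPKM in the 143B NC libraries (log2 change -0.86, SE 0.29, limma adjusted p = 0.0433). In HOS it had 41.9 and 46.82 FPKM in the libraries labelled sgNAT10, against 68.58 and 60.37 FPKM in the NC libraries (log2 change -0.53, SE 0.096, limma adjusted p = 0.000136). BNIP3 fell in both lines, and its groups overlapped in neither. The 143B call was lost in 6 of 17 alternatives. It did not hold after median-ratio scaling (log2 change -0.59, limma adjusted p = 0.220), after quantile normalization or with no intensity trend. Nor did it hold without sgNAT10 replicate 1, sgNAT10 replicate 2 or NC replicate 2. Leaving out a library of 143B gave log2 changes between -1.08 and -0.64. The HOS call did not hold with a spread shared by all 8 libraries (limma adjusted p = 0.113).

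BNIP3L showed no such fall. It had 6.2 and 9.36 FPKM in the 143B sgNAT10 libraries, against 5.4 and 10.06 FPKM in the 143B NC libraries (log2 change 0.038, SE 0.39, 95% interval -0.85 to 0.93, limma adjusted p = 0.949). In HOS it had 42.55 and 43.72 FPKM in the libraries labelled sgNAT10, against 43.43 and 40.67 FPKM in the NC libraries (log2 change 0.037, SE 0.091, 95% interval -0.15 to 0.23, limma adjusted p = 0.733). The groups overlapped in both lines, and the 143B interval leaves room for a fall nearly as large as that of BNIP3. In HOS the BNIP3L change was called in 3 of 18 alternatives, among them the common sum, where it was a rise. Within a library, the ratio of BNIP3 to BNIP3L was 2.85 and 2.51 in 143B sgNAT10, against 5.99 and 4.39 in 143B NC. It was 0.985 and 1.07 in HOS sgNAT10, against 1.58 and 1.48 in HOS NC. This ratio does not depend on library scaling, and it was lower in both sgNAT10 libraries of each line.

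NDRG1, a cytoplasmic protein induced by hypoxia and differentiation, moved in opposite directions in the lines. It fell to 9.73 and 10.66 FPKM in the 143B sgNAT10 libraries, against 34.86 and 38.36 FPKM in the 143B NC libraries (log2 change -1.75, SE 0.27, limma adjusted p = 0.00255). In HOS it rose to 26.85 and 25.41 FPKM in the libraries labelled sgNAT10, against 8.92 and 8.86 FPKM in the NC libraries (log2 change 1.46, SE 0.099, limma adjusted p = 8.42e-09). Replicates lay close together in every group.

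BHLHE40, a transcriptional repressor that links hypoxia with the circadian clock, fell furthest of the 9 genes in 143B. It had 0.33 and 1.08 FPKM in the 143B sgNAT10 libraries, against 20.43 and 32.39 FPKM in the 143B NC libraries (log2 change -4.01, SE 0.39, limma adjusted p = 0.000954). BHLHE40 reached 1 FPKM in 1 of the 2 sgNAT10 libraries, so it passed the 143B filter only with the NC libraries, where it is high, and a fall was the direction that the filter allowed. Only 4 of the 11419 genes tested in that line had a lower log2 change. In HOS it rose to 21.77 and 21.52 FPKM in the libraries labelled sgNAT10, against 10.38 and 10.28 FPKM in the NC libraries (log2 change 0.999, SE 0.099, limma adjusted p = 3.04e-07).

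The difference between the lines was tested directly, as the 143B change minus the HOS change, in a joint fit of all 8 libraries over the 10655 genes that passed the filter in both tables. It passed the threshold for 6 of the 9 genes, beside 49.1% of all genes. All 6 were negative, beside 36.2% of all genes. BHLHE40 differed most, by -5.01 (SE 0.40, limma adjusted p = 6.70e-05). ANGPTL4 followed at -4.06 (SE 0.27, limma adjusted p = 4.25e-05) and NDRG1 at -3.20 (SE 0.25, limma adjusted p = 6.58e-05). VEGFA differed by -2.72 (SE 0.44, limma adjusted p = 0.00106) and ADM by -1.54 (SE 0.28, limma adjusted p = 0.00203). These 5 genes were thus lower with sgNAT10 in 143B relative to their change in HOS. Counted by calls within each line, 4 of the 9 genes (VEGFA, ANGPTL4, NDRG1 and BHLHE40) fell in 143B and rose in HOS, beside 15.7% of the 10655 genes, or 9.92% under median-ratio scaling, where 3 of the 9 remained without VEGFA. BNIP3 alone fell in both, beside 2.73% of genes, and under median-ratio scaling none of the 9 did, beside 3.99%.

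EGLN1 differed by -1.32 (SE 0.48, limma adjusted p = 0.0457), a call lost in 8 of 19 alternatives: with a pseudocount of 0.1 (limma adjusted p = 0.0873), after median-ratio scaling (limma adjusted p = 0.0518) and without any 1 of 6 libraries, namely 143B sgNAT10 replicate 1, 143B NC replicate 2 and each of the 4 HOS libraries (limma adjusted p between 0.0643 and 0.140). For HIF1A the difference was -0.75 (limma adjusted p = 0.220), for BNIP3 -0.33 (limma adjusted p = 0.403) and for BNIP3L 0.0013 (limma adjusted p = 0.998). Averaged over both lines, 4 genes fell (VEGFA, ANGPTL4, BNIP3 and BHLHE40), and none rose, beside 17.6% of genes that fell, 13.1% that rose and 30.6% called in either direction. The mean change of BNIP3 was -0.69 (SE 0.15, limma adjusted p = 0.0103). It missed the threshold without HOS sgNAT10 replicate 1 (limma adjusted p = 0.0586) and without HOS NC replicate 1 (limma adjusted p = 0.0543). NDRG1, with opposite signs in the lines, averaged -0.15 (limma adjusted p = 0.402). BHLHE40 (-1.50), ANGPTL4 (-1.22) and VEGFA (-1.12) fell on average although they were higher in HOS.

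**Figure D3:**
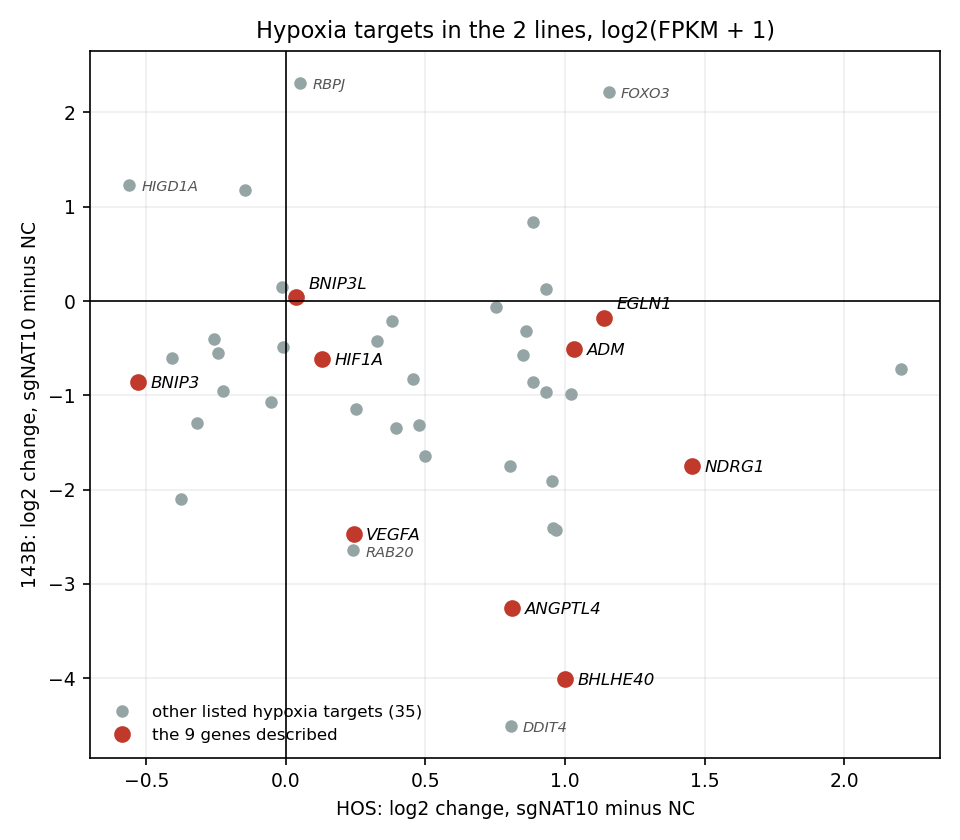
Log2 change in 143B (vertical axis) against that in HOS (horizontal axis) for the 9 genes (red) and 35 other hypoxia targets tested in both lines (grey), sgNAT10 minus NC. The lower right quadrant, lower in 143B and higher in HOS, holds all of the 9 genes but BNIP3 and BNIP3L, and of these VEGFA, ANGPTL4, NDRG1 and BHLHE40 passed the threshold in both lines.

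The replicates of 143B differed from each other in a shared way. Replicate 2 lay above replicate 1 in both groups for 8 of the 9 genes, ANGPTL4 being the exception. The median difference over all genes was 0.15 on the log2 scale in sgNAT10 and 0.28 in NC. For HIF1A it was 0.69 and 1.02. Across genes, this replicate difference correlated with the GC content of the longest transcript (Spearman rho -0.61 in sgNAT10 and -0.74 in NC), a description over genes that are not independent. The transcript of HIF1A has 36.4% GC and that of ANGPTL4 63.3%. In HOS the replicate difference correlated with GC content as well (Spearman rho -0.29 in sgNAT10 and 0.72 in NC). The change with sgNAT10 itself correlated with GC content across genes, at rho -0.40 in 143B and 0.30 in HOS. In HOS it also correlated with transcript length (rho 0.29). The part of GC content and length in the opposite directions of the lines was not tested. The correction for length and GC content, added after seeing the data, left VEGFA, ANGPTL4, NDRG1 and BHLHE40 lower in 143B (log2 change -1.96, -2.57, -0.96 and -3.46, each with limma adjusted p under the threshold).

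Control levels of the lines are set side by side without a test, because the tables may have been normalized separately. Of the 9 genes, 5 lay lower in both 143B NC libraries than in both HOS NC libraries, as did 50.9% of the 11807 genes in both tables, and 3 lay higher, as did 37.4%. HIF1A stood at 15.2 and 31.77 FPKM in 143B NC, against 138.64 and 115.11 FPKM in HOS NC, a mean 5.40-fold higher in HOS. BNIP3L was 5.44-fold higher in HOS NC, EGLN1 2.99-fold, BNIP3 1.69-fold and ADM 1.64-fold. In the other direction, ANGPTL4 stood at 38.78 and 31.65 FPKM in 143B NC, against 0.81 and 0.96 FPKM in HOS NC, and its mean was 39.8-fold higher in 143B. NDRG1 was 4.12-fold and BHLHE40 2.56-fold higher in 143B NC, and the VEGFA libraries of the lines overlapped. Rescaling to a common sum left each of these relations as it was.

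Within a library the order of the levels, per length of transcript, differed between the lines. In 143B NC, the means ran BNIP3, NDRG1, ANGPTL4, BHLHE40, HIF1A, ADM and VEGFA, each of these overlapping its neighbour, followed by BNIP3L and EGLN1. In HOS NC, HIF1A stood first and ANGPTL4 last, and no neighbours overlapped. ANGPTL4 ranked at percentiles 81.8 and 77.8 of the genes in both tables in 143B NC, against 5.67 and 6.59 in HOS NC. HIF1A ranked at 67.8 and 77.9 in 143B NC, against 95.3 and 93.8 in HOS NC. In HOS sgNAT10 the order began with HIF1A and ADM and ended with BHLHE40 and ANGPTL4.

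Other genes of the HIF machinery were compared next, from a list of 20 genes besides HIF1A and EGLN1. The counts of this and the following lists stand beside 12.9% of all genes that rose and 25.4% that fell in 143B (median -0.25) and 45.5% that rose and 23% that fell in HOS (median 0.19). In 143B 19 were tested, 5 rose and 1 fell, with a median change of -0.36. Without 143B NC replicate 1 the falls were 8, and without sgNAT10 replicate 2 the rises were 3. VHL, the recognition subunit of the ubiquitin ligase, had 26.19 and 25.66 FPKM in the 143B sgNAT10 libraries, against 7.14 and 9.55 FPKM in the 143B NC libraries (log2 change 1.54, limma adjusted p = 0.00496). Its partners ELOB (1.43) and ELOC (1.25) rose, as did the chaperone HSP90AA1 (1.41) and HIF3A (0.79), which passed the filter only through sgNAT10. CITED2, a HIF-induced protein that competes with HIF1A for its coactivators, fell by 2.43 on the log2 scale, with 0.82 and 1.21 FPKM in sgNAT10, against 6.96 and 13.59 FPKM in NC.

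In HOS 19 were tested, 10 rose and 5 fell (2 without sgNAT10 replicate 1), with a median of 0.32. EPAS1, the other main HIF alpha subunit, had 45.49 and 42.94 FPKM in the libraries labelled sgNAT10, against 15.02 and 15.39 FPKM in the NC libraries (log2 change 1.48, limma adjusted p = 3.93e-09). The coactivators EP300 (1.13) and CREBBP (1.02), SIAH2 (0.98), a ubiquitin ligase of the prolyl hydroxylases, CITED2 (0.97) and VHL (0.84) rose. EGLN3 (0.50), ARNT2 (0.48), HIF1AN (0.34) and ARNT (0.32) rose by less, and ARNT2, HIF1AN and ARNT turned sign under the length and GC correction. HSP90AA1 (-0.66), CUL2 (-0.47), RBX1 (-0.40), ELOC (-0.40) and ELOB (-0.25) fell. VHL thus rose in both lines, and its difference between them did not pass the threshold (0.70, limma adjusted p = 0.0675). That difference passed in 7 of 20 alternatives. Among these were median-ratio scaling (1.17, limma adjusted p = 0.0045) and the length and GC correction (1.19, limma adjusted p = 0.00062). CITED2 differed by -3.39 (limma adjusted p = 0.000237), EPAS1 by -2.01 (limma adjusted p = 0.00345) and ELOC by 1.65. The list's median turned to 0.11 in 143B and -0.032 in HOS under the length and GC correction.

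**Figure D4:**
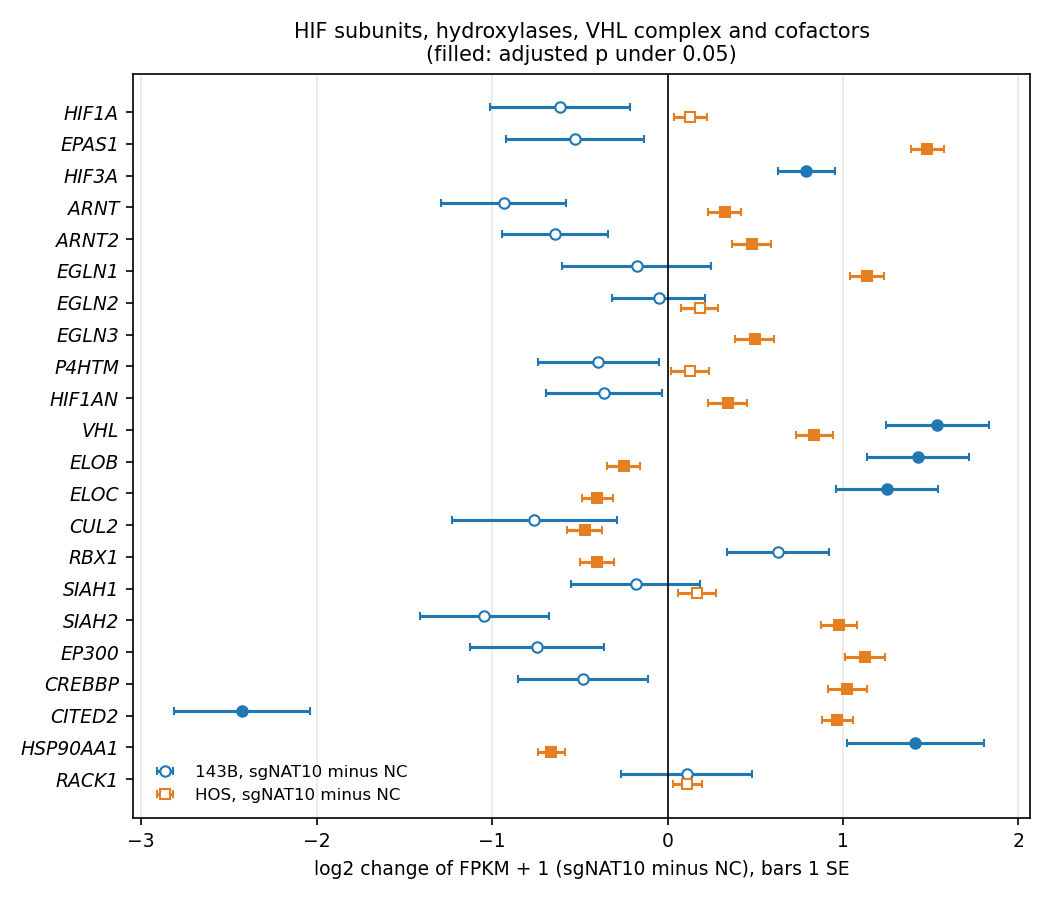
Log2 change of FPKM + 1, sgNAT10 minus NC, for HIF subunits, hydroxylases, VHL complex genes and cofactors in 143B (circles) and HOS (squares), with bars of 1 SE. Filled symbols passed the adjusted p threshold of 0.05. VHL lies above 0 in both lines, and CITED2 lies below 0 in 143B and above 0 in HOS.

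Other hypoxia targets, 40 genes besides the 9, had more falls than rises in 143B and more rises than falls in HOS. They include PFKFB3 and PFKFB4, which regulate glycolysis, and both fell in 143B and rose in HOS. In 143B 35 were tested, 4 rose and 16 fell, with a median of -0.83. Without sgNAT10 replicate 1 the falls were 8, and without sgNAT10 replicate 2 the rises were 2. In HOS 38 were tested, 23 rose and 7 fell, with a median of 0.47, the falls being 2 without sgNAT10 replicate 1 and 3 without sgNAT10 replicate 2. Of the 35 tested in both lines, 10 fell in 143B and rose in HOS, where 15.7% of all genes did so. A further 2 fell in both (2.73% of all genes), 1 rose in both (3.39%) and 1 rose in 143B and fell in HOS (3.63%). DDIT4, an inhibitor of mTORC1 signalling induced by stress, had 1.65 and 1.3 FPKM in the 143B sgNAT10 libraries, against 58.76 and 51.5 FPKM in the 143B NC libraries (log2 change -4.50). It had 77.21 and 77.38 FPKM in the HOS libraries labelled sgNAT10, against 42.54 and 45.13 FPKM in HOS NC (0.80), a difference of -5.31 between the lines. RAB20 (-2.64) and CITED2, both of which passed the filter only with the NC libraries, where they are high, fell in 143B as well, while RBPJ (2.31), FOXO3 (2.22) and HIGD1A (1.23) rose there. In HOS, FOXO3 (1.16) and YEATS2 (1.02) rose and HIGD1A (-0.56), PPP1R3C (-0.41) and KDM3A (-0.41) fell, of which HIGD1A was at -0.0026 under the length and GC correction. FOXO3, a stress-responsive transcription factor, was the 1 that rose in both lines, with 12.44 and 12.94 FPKM in 143B sgNAT10, against 1.28 and 2.78 FPKM in 143B NC.

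Ligands and receptors related to VEGFA, ANGPTL4 and ADM gave 0 rises and 3 falls among 11 tested in 143B (NRP2 -1.81, ADM2 -1.68, FLT4 -1.43; 5 falls without NC replicate 1), of which ADM2 passed the filter only through NC, and 8 rises and 1 fall among 12 in HOS. PGF (1.04), the coreceptor NRP2 (0.94) and VEGFC (0.86) rose in HOS and TEK (-0.64), which passed the filter only through NC, fell. NRP2 differed between the lines by -2.75. Of 20 other mitophagy and autophagy genes, 1 rose and 4 fell in 143B (the 3 largest falls being ULK1 -1.63, GABARAPL1 -1.57 and MAP1LC3A -1.11, each under 1 FPKM in both sgNAT10 libraries and past the filter only through NC), and 7 rose and 8 fell in HOS (9 and 4 after rescaling to a common sum, 4 and 11 under median-ratio scaling), among them PINK1 (1.04) and FUNDC1 (-0.64). Without a single library these counts moved to 2 rises (143B NC replicate 2), 2 falls (143B sgNAT10 replicate 2), 4 rises (HOS sgNAT10 replicate 2) and 5 falls (HOS sgNAT10 replicate 1 or 2). The other 3 NDRG genes gave 2 falls in 143B, NDRG4 (-1.13) and NDRG2 (-1.02), neither called under the length and GC correction or without either sgNAT10 library, and 2 rises in HOS, NDRG2 (0.49) and NDRG3 (0.45), 1 without HOS sgNAT10 replicate 1.

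BHLHE40 is known to repress clock-driven transcription. The list of clock genes gave 1 rise and 6 falls among 16 tested in 143B, with a median of -0.47 (3 falls without sgNAT10 replicate 2, 3 rises without NC replicate 2), and 14 rises and 0 falls among 19 in HOS, with a median of 0.46 (11 rises and 1 fall under median-ratio scaling, 9 and 2 under quantile normalization, 10 and 1 under the length and GC correction). NPAS2, a partner of the clock activator complex, had 6.02 and 6.48 FPKM in the 143B sgNAT10 libraries, against 22.84 and 36.2 FPKM in the 143B NC libraries (log2 change -2.04). In HOS it had 9.23 and 8.52 FPKM in the libraries labelled sgNAT10, against 2.4 and 2.48 FPKM in the NC libraries (1.52). NR1D1 (-1.90) and PER1 (-1.79) fell and CLOCK (1.49), which passed the filter only with the sgNAT10 libraries, rose in 143B, and ARNTL2 (0.86) and CRY1 (0.82) rose in HOS. The falls in 143B include BHLHE41, which passed the filter there only through NC. The rises in HOS include BHLHE41 and PER2, which passed it there only through sgNAT10.

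Cell type markers were set beside these results. Of 10 mesenchymal and osteoblast markers, 6 were listed in 143B. They summed to between 501 and 792 FPKM in sgNAT10 and between 1394 and 1818 FPKM in NC. All 5 tested there fell, and fewer were called without sgNAT10 replicate 1. ALPL and FN1 passed the filter only with the NC libraries, where they are high. COL1A1 was not called under the length and GC correction (limma adjusted p = 0.165), nor VIM under median-ratio scaling (limma adjusted p = 0.116). In HOS 7 were listed, summing to between 1790 and 1858 FPKM in sgNAT10 and between 1434 and 1627 FPKM in NC, and 4 of 7 rose (7 without NC replicate 2). The osteoblast markers SP7, BGLAP and IBSP were listed in neither line. Of 12 markers of other cell types, 3 were listed in 143B, at 5.46 to 5.74 FPKM in sgNAT10 and 2.74 to 3.53 FPKM in NC, and 4 in HOS, at 21 to 22.7 FPKM in sgNAT10 and 17.7 to 20.4 FPKM in NC, and PTPRC, CD3E, CDH1, GFAP and ALB were listed in neither. Their part in the results was not tested. The gene whose pattern over the 8 libraries, centred within each table, was most like that of VEGFA was SPARC, one of these markers (Pearson r 0.998), followed by TPST1 (0.998) and BCL2L2 (0.997), and for HIF1A it was ANAPC1 (0.996), ACSL1 (0.992) and SNAP23 (0.992). These values describe the highest of 10655 genes and share the libraries they were taken from.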

How the data were processed

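Polyadenylated RNA of 8 libraries was measured. The authors deposited FPKM values, 1 table per cell line, and each listed gene exceeds 0.5 FPKM in at least 2 libraries. Bowtie2, RSEM, DESeq2 and GRCh38 are named, per the submitters' processing notes, with no roles. Which annotation they used is not stated. Low values showed no steps, so reads could not be recovered and no counting interval is given.

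Groups came from the sample titles. From the deposited FPKM, log2(FPKM + 1) was tested with limma 3.58.1 (intensity trend, two-sided) in R 4.3.3, each line alone, and both together for the difference and the mean. Replicates correlated between 0.977 and 0.997 (Pearson). The fits were tested on simulated data with independent noise of a single spread per line. Such noise lacks the replicate difference that the 143B groups shared, so its effect on the p-values was not tested there. The members, gene lists and tests were chosen with earlier results of these data known. Named besides the 9 genes are NAT10, any HIF machinery gene, the 3 largest called rises and falls of each list in each line, and the 3 genes most like VEGFA and HIF1A. Some genes that this rule names are not reported here. List counts leave out the 9 genes. Transcript lengths and GC content came from a GENCODE annotation of GRCh38, which matched 98.3% and 98.5% of genes by name in 143B and HOS.

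Alternatives were pseudocounts of 0.1 and 5, no filter, a filter at 5 FPKM, common-sum, median-ratio and quantile scaling, no trend, robust moderation, a spread shared by all 8 libraries, a replicate block and leaving out each library. A spline correction for GC content and transcript length (4 degrees of freedom), alone and with the block, and a crossed block in HOS were chosen after seeing the data.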

Additional observations from a re-analysis of the deposited data

Results flagged for a closer look

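For 6 genes the change with sgNAT10 differed between the lines by a test of the difference itself, 143B minus HOS, on the log2(FPKM + 1) scale. It was -5.01 for BHLHE40, -4.06 for ANGPTL4, -3.20 for NDRG1, -2.72 for VEGFA, -1.54 for ADM and -1.32 for EGLN1, each past the limma threshold. The EGLN1 difference lost its call in 8 of 19 alternatives (highest limma adjusted p = 0.140). BHLHE40, ANGPTL4, NDRG1 and VEGFA were called lower in 143B and higher in HOS. Of these, BHLHE40 in 143B and ANGPTL4 in HOS passed the filter only with the group where they are high. For ADM and EGLN1 the call within a line was made in HOS alone, and the difference carries the comparison. The 2 lines also differ in NAT10 RNA, which was lower with the guide in 143B and higher in the HOS libraries labelled sgNAT10. Its part in these differences was not tested.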

How the results depend on the processing

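The falls of VEGFA, ANGPTL4, NDRG1 and BHLHE40 in 143B passed the threshold under every alternative run. In HOS the rises of EGLN1, ADM, NDRG1, BHLHE40 and ANGPTL4 did so under every alternative that tested them. ANGPTL4 in HOS was not tested with the filter at 5 FPKM. BHLHE40 in 143B and ANGPTL4 in HOS entered the main test only with the group where they are high. The calls of BNIP3 in both lines, of VEGFA in HOS and of EGLN1 between the lines did not hold under every alternative, and the cause was not tested. Depth is unknown and each group holds 2 libraries, where leaving 1 out assumes that the lone library varies like the others.

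With the replicate block, 7652 genes were called in 143B against 4370 without it, and 6124 over both lines against 3261. HIF1A (limma adjusted p = 0.00287) and ADM (limma adjusted p = 0.0136) then passed in 143B, and VEGFA in HOS did not (limma adjusted p = 0.0865). The numbers 1 and 2 are not stated to pair the samples: deviations of same-numbered libraries correlated at 0.605 in 143B and -0.106 in HOS. Crossed numbers in HOS gave 8458 called genes, 7 of the 9 described among them.

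The count over both lines was 2098 of 6593 with the filter at 5 FPKM, against 3261 of 10655, 5940 with the length and GC correction and 6533 with that correction and the block, with 7 of the 9 genes called in each of the last 2. The correction with the block called 7183 genes in 143B. A shared spread called 1864 of 10655 in HOS, against 8195 of 11957. Leaving out a library gave 1995 to 5067 in 143B and 1399 to 4763 over both lines. The log2 ratio of VEGFA to ANGPTL4 taken from FPKM + 1 was 3.004 in HOS sgNAT10 and 3.57 in HOS NC, against 3.47 and 4.60 from FPKM.

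Signs turned for values that were mostly near 0. In 143B, EGLN1 was 0.046 with median-ratio scaling, 0.081 with quantile normalization and -0.68 to 0.33 leaving out a library. ADM was 0.10 with the length and GC correction, with or without the block. BNIP3L was -0.26 with the common sum, -0.14 with that correction, with or without the block, and -0.36 to 0.43 leaving out a library. In HOS, HIF1A was -0.098 with median-ratio scaling and -0.0024 to 0.26 leaving out a library. BNIP3L was -0.19 and -0.0097 to 0.083 under the same changes. VEGFA was -0.13 with the correction, with or without the block. Between the lines, BNIP3 was 0.17 with median-ratio scaling. BNIP3L was -0.014 with a pseudocount of 5, -0.50 with the common sum, -0.32 with the correction, with or without the block, and -0.39 to 0.40 leaving out a library. Over both lines, HIF1A was -0.50 to 0.012 and BNIP3L -0.16 to 0.23 leaving out a library, BNIP3L was -0.0075 with the common sum, and NDRG1 was 0.0089 with the correction, with or without the block.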
